A study of Mus musculus with 9 samples.

Results

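Glutathione transferases join the thiol of glutathione to reactive compounds, and 3 further genes make the glutathione itself. These 10 genes were followed in the striatum of mice given a dopamine toxin. The transferase genes were Gstm1 and Gstm5 (mu class), Gstt1 and Gstt2 (theta), Gsto1 (omega), Gsta4 (alpha) and Gstp1 (pi). The synthesis genes were Gclc, Gclm and Gss. Members were all probe sets whose single annotated gene symbol is one of these names, which gave 10 of the 12393 genes annotated to the deposited probe sets and 15 of the 22626 probe sets, array controls left out. The array type that the design text names holds more probe sets than were analysed here, and which type was used is not settled, so these counts are of the deposited table. Each probe set sums up several short probes of 1 transcript. Gstm1 had 4 of the 15, Gsto1 and Gclc had 2 each, and the other 7 genes had 1 each.

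Striatal RNA of 9 mice was compared in groups of 3, with 1 array per mouse: METH (injected with methamphetamine), MPTP (injected with MPTP) and Control (injected with saline). All 9 were male C57BL/6J mice, 56 days old, and RNA came from left and right striatum. The sources used here state no dose, number of injections or delay before dissection. The arrays measure whole tissue, so fewer cells of a type and less RNA per cell cannot be told apart.

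Glutathione is built in a pair of steps. Glutamate-cysteine ligase, made of the catalytic subunit Gclc and the modifier subunit Gclm, carries out the rate-limiting one, and glutathione synthetase, Gss, adds glycine. In rodent brain, astrocytes hold and export much of the glutathione, mu-class transferases are found mainly in astrocytes and pi-class transferase mainly in oligodendrocytes. Methamphetamine drives dopamine out of its vesicles, and outside them dopamine oxidises to quinones that react with thiols. MPTP is converted to a toxin that blocks respiration in dopamine terminals. Several of the 10 genes are targets of the transcription factor NRF2, which binds the antioxidant response element.

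Promoters are shown for Gstm1 and Gstm5, which had probe sets with every METH array below every Control array, and for Gstt1, which had the widest gap between the toxins among the members tested. None of the 3 genes passed the test, and Gsto1, not shown, also had groups that did not overlap. Each run holds the 250 bases before the gene's start, read 5′ to 3′ on the gene's strand, from RefSeq on GRCm38.p6. Capitals mark matches on either strand to the core of the antioxidant response element, TGANNNNGC, in which N is any base.
Gstm1 (chr3:108017974-108018223, minus strand): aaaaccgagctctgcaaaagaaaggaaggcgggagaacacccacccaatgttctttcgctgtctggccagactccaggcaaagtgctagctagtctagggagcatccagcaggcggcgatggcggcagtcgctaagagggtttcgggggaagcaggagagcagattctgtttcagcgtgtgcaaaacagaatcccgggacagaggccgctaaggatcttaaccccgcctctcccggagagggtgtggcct
Gstm5 (chr3:107895604-107895853, plus strand): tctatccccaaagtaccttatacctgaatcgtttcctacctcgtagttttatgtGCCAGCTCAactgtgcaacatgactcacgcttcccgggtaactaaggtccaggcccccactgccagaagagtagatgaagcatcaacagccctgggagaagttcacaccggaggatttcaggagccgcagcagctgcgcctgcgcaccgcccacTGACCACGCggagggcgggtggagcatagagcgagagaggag
Gstt1 (chr10:75797732-75797981, minus strand): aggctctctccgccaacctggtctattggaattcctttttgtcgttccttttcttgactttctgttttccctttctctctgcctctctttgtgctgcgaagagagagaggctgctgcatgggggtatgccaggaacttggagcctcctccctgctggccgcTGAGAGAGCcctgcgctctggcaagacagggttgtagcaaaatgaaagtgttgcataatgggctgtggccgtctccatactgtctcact
The core is short and can overlap a binding site of the factor AP-1. Of 32851 promoters of this length, 35.2% held a match, and 10.2% held the narrower form TGACNNNGC. Entries were found for 7 of the 10 genes (8 entries, as Gstm1 has 2 starts), and 4 genes, Gstm5, Gstt1, Gstp1 and Gclm, had a match. Neither Gstm1 entry had one. The narrower form was found in Gstm5 and Gclm. These are matches of letters and no binding was measured here.

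No member passed the test in any comparison. Groups were compared with limma on log2 signals, on the 13576 probe sets whose mean over all 9 arrays was at or above the 40th percentile, with 0.05 as the threshold for the adjusted p. Of the members, 14 probe sets of 9 genes were tested, and Gstt2 was too dim. In METH against Control 0 of the 14 passed, where 0.0147% of all probe sets did. In MPTP against Control 0 of the 14 passed, again beside 0.0147%, and in METH against MPTP 0 of the 14 passed beside 0.00%. The probe sets that passed were the 2 of Gfap, the astrocyte filament gene, in both comparisons with Control (log2 fold change 1.13 ± 0.13 for METH and 1.14 ± 0.13 for MPTP in the brighter, ± SE). Leaving out 1 array at a time, 0 to 1 probe sets passed in METH and 0 in MPTP. With 3 arrays a group, the smallest p that an exact permutation test can give is 0.1, and that test was left out. By the study's design text, the arrays of a group come from different mice.

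In METH mice, the members wholly below Control in the values as deposited were mu-class transferases. In 4 of the 14 probe sets all 3 METH arrays lay below all 3 Control arrays, where 6.73% of all probe sets tested did so, and these 4 were 3 probe sets of Gstm1 and the 1 of Gstm5. They are 2 genes, not 4 independent observations. In 1 of the 14, a Gsto1 probe set, all METH arrays lay above, beside 6.96% of all. At an unadjusted p under 0.05, 5 members were lower in METH (background 3.00%) and 1 was higher (background 5.76%). The count of 5 was 1 without METH 2, whose signal distribution was the narrowest of the 9 arrays, and also 1 without Control 3. A separation from Control cannot be undone by leaving out METH 2, so the 4 below Control were bound to stay. Their count was again 4, all mu class, where 11.4% of all probe sets then separated that way. With quantile normalization 6 members lay entirely below Control, 4 of them mu class, beside 7.20% of all. With arrays centred on their medians 5 did, 4 of them mu class, beside 11.4% of all.

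In MPTP mice, the probe sets separated from Control were of Gstm1, Gstt1 and Gsto1. All 3 MPTP arrays lay below all Control arrays in 1 of the 14 (4.92% of all) and above them in 2 (6.20% of all). At an unadjusted p under 0.05, 1 member was lower (background 1.82%) and 1 higher (background 3.71%). Between the toxins, METH arrays lay entirely below MPTP arrays in 2 of the 14 (3.55% of all) and entirely above in 1 (3.71% of all), and 2 members were lower (1.06% of all) and 0 higher (1.74% of all) in METH at an unadjusted p under 0.05. Both toxin groups share the 3 Control arrays.

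**Figure D1:**
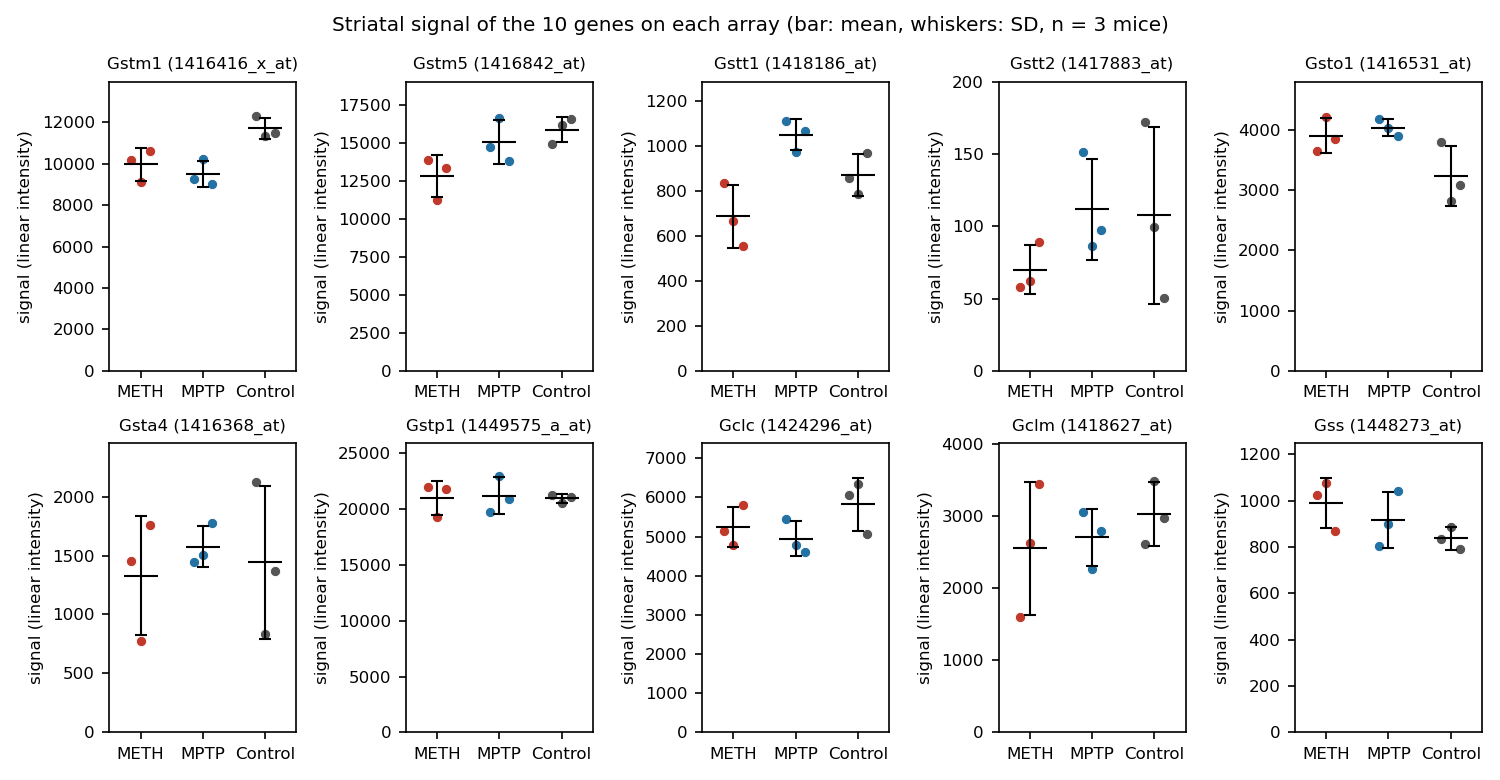
Signal (linear intensity, each axis from 0) of each of the 10 genes in METH, MPTP and Control striatum, for the gene's probe set of highest mean. Points are single mice, bars the mean and whiskers the SD (n = 3). Gstm1 of both toxin groups and Gstm5 of METH lie below all Control points. Gstt1 and Gsto1 of MPTP lie above all Control points, and the dim Gstt2 varies within every group.

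Gstm1, the mu-class transferase best known from liver and astrocytes, read lower on every METH array than on any Control array in 3 of its 4 probe sets. In its brightest probe set, 1416416_x_at, the signal was 10188, 9099 and 10612 in METH mice and 9267, 10204 and 9031 in MPTP mice, against 12296, 11321 and 11487 in Control mice. Every toxin array was thus below every Control array in this probe set. The log2 fold change was -0.23 ± 0.10 for METH (limma adjusted p = 0.541) and -0.30 ± 0.10 for MPTP (adjusted p = 0.843), neither past the test.

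The next probe set of Gstm1, 1448330_at, read 7348, 7836 and 9314 in METH mice and 9023, 8428 and 9513 in MPTP mice, against 9479, 10450 and 9685 in Control mice. METH arrays again lay below all Control arrays, while MPTP 3 reached into the Control range. Its log2 fold changes were -0.28 ± 0.11 for METH and -0.14 ± 0.11 for MPTP. Probe set 1425626_at read 988, 972 and 867 in METH mice and 992, 1128 and 1253 in MPTP mice, against 1239, 1208 and 1367 in Control mice. This was the member with the smallest p in METH against Control, at a log2 fold change of -0.43 ± 0.11 (limma adjusted p = 0.438). The MPTP value was -0.18 ± 0.11, with MPTP 3 inside the Control range. This probe set lay at percentile 49.3 of mean signal, well below the other Gstm1 probe sets. All 3 METH arrays here also lay below all 3 MPTP arrays, at -0.25 ± 0.11 (adjusted p = 1).

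The fourth Gstm1 probe set, 1425627_x_at, did not follow the others. It read 2708, 2105 and 2573 in METH mice and 2319, 2522 and 2952 in MPTP mice, against 2540, 1764 and 3004 in Control mice, so that all groups overlapped. Its fold changes were 0.04 ± 0.19 for METH and 0.12 ± 0.19 for MPTP on the log2 scale, and the METH value turned to -0.02 with arrays centred on their medians. Its within-group SD was 0.27 log2 units, against 0.09 to 0.13 in the other 3. Probe sets ending in _x_at may bind transcripts of related genes, and Gstm1 lies among 7 Gstm genes on chromosome 3. The same limit holds for the brightest probe set, 1416416_x_at, the only Gstm1 probe set in which MPTP separated from Control.

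Gstm5, a mu-class gene of brain and testis at the far end of the same cluster, had signals of 13876, 11254 and 13393 in METH mice and 14771, 16676 and 13842 in MPTP mice, against 14957, 16194 and 16579 in Control mice. METH arrays lay below all Control arrays, and MPTP arrays spanned the Control range. The means were 12841 ± 1395 in METH, 15096 ± 1445 in MPTP and 15910 ± 847 in Control (SD, n = 3 each). On the log2 scale METH differed from Control by -0.31 ± 0.11 (95% interval -0.57 to -0.06, limma adjusted p = 0.53) and MPTP by -0.08 ± 0.11. Set against MPTP, METH gave -0.24 ± 0.11 (adjusted p = 1). METH 2 had the lowest value, and without it the METH value was -0.22.

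Other mu-class genes were measured beside these. Of those tested, Gstm3 had -0.24 ± 0.22 in METH and -0.10 ± 0.22 in MPTP, Gstm4 had 0.10 ± 0.15 and 0.20 ± 0.15, and Gstm7 had 0.12 ± 0.15 and 0.18 ± 0.15, all as log2 fold changes against Control. None separated from Control. Of 11 astrocyte markers, 8 were above 0 in METH and 3 below, with a median log2 fold change of 0.07, and in MPTP 7 were above and 4 below, with a median of 0.17. The glutamate transporter gene Slc1a3 had -0.30 ± 0.20 in METH and the glutamine synthetase gene Glul -0.15 ± 0.12. Among the 8 above 0, S100b had 0.18 ± 0.13 and Gjb6 0.16 ± 0.13. The summed signal of all 11 markers was 119032 to 131296 in METH and 123099 to 132679 in MPTP, against 116636 to 122800 in Control, with no marker at 0. Without Gfap, a sum formed after the data were seen, the other 10 gave 108075 to 119219 in METH and 111749 to 120655 in MPTP, against 111615 to 116363 in Control. Gfap alone passed, and the water channel gene Aqp4 had 0.28 ± 0.08 in METH (adjusted p = 0.487). The part of the astrocyte markers in the mu-class values was not tested.

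**Figure D2:**
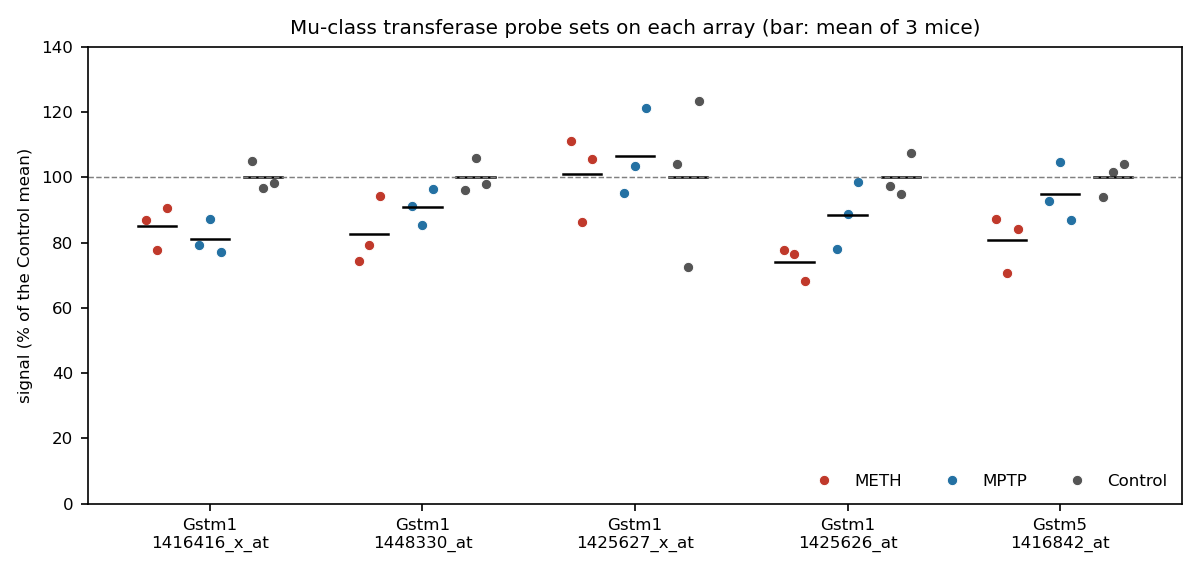
Signal of the 5 mu-class probe sets as a percentage of the Control mean, by mouse, in METH, MPTP and Control (bars are means of 3 mice, dashed line the Control mean). The METH points of 4 probe sets lie below all Control points, and those of Gstm1 1425627_x_at overlap them.

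Gstt1, a theta-class transferase that acts on small halogenated compounds, had the widest gap between the toxins among the members tested. Its signal was 836, 668 and 555 in METH mice and 1111, 974 and 1065 in MPTP mice, against 856, 788 and 969 in Control mice. MPTP arrays lay above all Control arrays, METH arrays lay below all MPTP arrays, and METH 1 fell inside the Control range. METH minus MPTP was -0.63 ± 0.15 on the log2 scale (95% interval -0.96 to -0.30, unadjusted p = 0.00174 and adjusted p = 1 in limma). Against Control the log2 fold change was -0.36 ± 0.15 for METH (adjusted p = 0.54) and 0.27 ± 0.15 for MPTP (adjusted p = 0.874). Without METH 3 the METH value was -0.22. The Gstt1 probe set lay at percentile 42.9 of mean signal, just above the filter.

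Gstt2, a theta-class gene of the same cluster on chromosome 10, lay at percentile 10.2 and was not tested in the filtered fit. It read 58.3, 62.5 and 89.5 in METH mice and 152, 86.2 and 97.4 in MPTP mice, against 173, 99.9 and 50.8 in Control mice. The groups overlapped in each comparison. With no filter its log2 fold changes were -0.48 ± 0.44 for METH and 0.18 ± 0.44 for MPTP.

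Gsto1, the omega-class enzyme that reduces dehydroascorbate and removes glutathione from proteins, read higher in both toxin groups. Probe set 1416531_at read 3640, 4210 and 3837 in METH mice and 4180, 4032 and 3887 in MPTP mice, against 3787, 2816 and 3083 in Control mice. MPTP arrays lay above all Control arrays, and METH 1 lay below Control 1. The log2 fold change was 0.28 ± 0.12 for METH (limma adjusted p = 0.555) and 0.33 ± 0.12 for MPTP (adjusted p = 0.874). Without Control 1 they were 0.40 and 0.45, and without Control 2 they were 0.19 and 0.24.

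The other Gsto1 probe set, 1456036_x_at, read 3383, 3188 and 3192 in METH mice and 3091, 2985 and 3163 in MPTP mice, against 2577, 3095 and 2962 in Control mice. Here all METH arrays exceeded those of both Control and MPTP, and MPTP overlapped Control. The values were 0.18 ± 0.10 for METH and 0.10 ± 0.10 for MPTP. Both probe sets gave the same sign, but they separated different toxin groups from Control. Microglia markers were above 0 for 10 of 10 genes in METH (median log2 fold change 0.21) and 10 of 10 in MPTP (0.20), with 0 past the test. Their summed signal was 59757 to 61121 in METH and 56319 to 60722 in MPTP, against 49488 to 56114 in Control, with no marker at 0. Their part in the Gsto1 values was not tested.

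Gsta4, which conjugates hydroxynonenal from peroxidised lipids, varied most within groups among the members tested. It read 1452, 775 and 1761 in METH mice and 1447, 1501 and 1775 in MPTP mice, against 2124, 833 and 1368 in Control mice. The groups overlapped fully, with a within-group SD of 0.54 log2 units, and the log2 fold changes were -0.10 ± 0.35 for METH and 0.22 ± 0.35 for MPTP. The 95% interval for METH ran from -0.88 to 0.68.

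Gstp1, the pi-class transferase whose loss makes mice more sensitive to MPTP, had nearly the same mean signal in the 3 groups, 20997 ± 1509 in METH, 21154 ± 1648 in MPTP and 20943 ± 391 in Control (SD, n = 3 each). It read 21990, 19260 and 21741 in METH mice and 19672, 22929 and 20862 in MPTP mice, against 21265, 20508 and 21056 in Control mice. The groups overlapped, and the log2 fold changes of 0.00 ± 0.10 for METH and 0.01 ± 0.10 for MPTP had signs that flipped with arrays centred on their medians. The 95% intervals, -0.22 to 0.22 for METH and -0.20 to 0.23 for MPTP, bound the difference in either direction. Gstp1 has a near-identical neighbour in mouse, Gstp2, to which no probe set is annotated here. Markers of oligodendrocytes, which hold this enzyme, had a median of 0.07 in METH and 0.16 in MPTP over 10 genes, with 0 past the test. In METH 6 of them were above 0 and 4 below, and in MPTP all 10 were above. Their part in the Gstp1 values was not tested.

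The genes of glutathione synthesis gave no separation between groups. Gclc, the catalytic subunit, read 5149, 4792 and 5805 in METH mice and 5449, 4794 and 4609 in MPTP mice, against 6056, 6351 and 5057 in Control mice in probe set 1424296_at. The ranges overlapped, at log2 fold changes of -0.15 ± 0.12 for METH and -0.23 ± 0.12 for MPTP. Its other probe set, 1455959_s_at, read 3794, 3649 and 3718 in METH mice and 4002, 3470 and 3439 in MPTP mice, against 4106, 3937 and 3767 in Control mice. Both probe sets were below 0 for both toxins, the second at -0.08 ± 0.09 for METH and -0.12 ± 0.09 for MPTP (adjusted p from 0.746 to 0.917 over the 4 values).

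Gclm, the modifier subunit that raises the affinity of the ligase for its substrates, read 1601, 2626 and 3444 in METH mice and 3052, 2268 and 2794 in MPTP mice, against 2618, 3490 and 2980 in Control mice. Its low METH value came from METH 1: the log2 fold change of -0.30 ± 0.25 was 0.00 without that array. For MPTP it was -0.16 ± 0.25. Gss read 1025, 1077 and 869 in METH mice and 804, 901 and 1043 in MPTP mice, against 834, 886 and 789 in Control mice. Gss had 0.24 ± 0.12 for METH (limma adjusted p = 0.624) and 0.12 ± 0.12 for MPTP, and METH 3 lay inside the Control range. Its probe set lay at percentile 44.5 of mean signal, near the filter. METH against MPTP gave log2 differences of 0.08 ± 0.12 for Gclc (1424296_at), -0.14 ± 0.25 for Gclm and 0.11 ± 0.12 for Gss, each with adjusted p = 1.

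**Figure D3:**
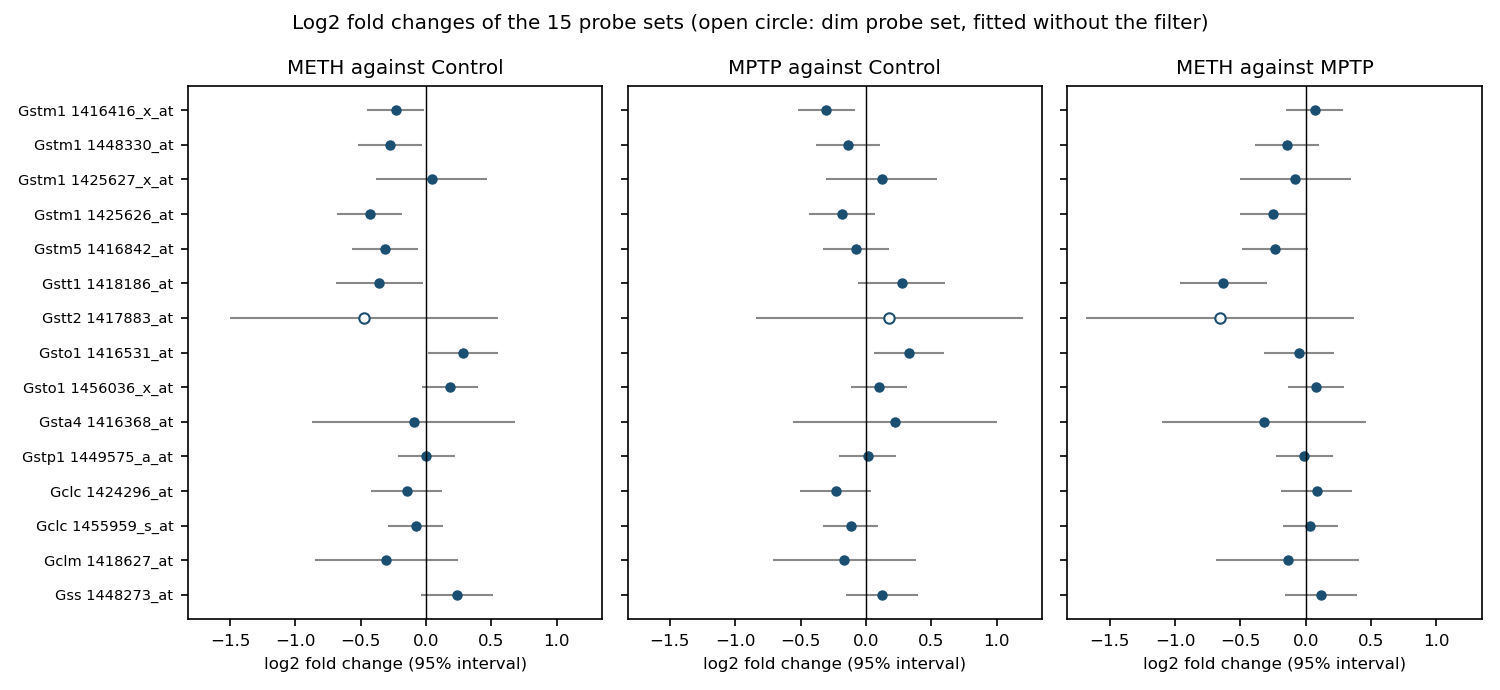
Log2 fold changes with 95% intervals (limma) of the 15 probe sets in METH against Control, MPTP against Control and METH against MPTP. Filled points were fitted after the filter on dim probe sets and the open point, Gstt2, without it. The intervals of Gstm1 1425626_at (METH against Control) and Gstt1 (METH against MPTP) are among those wholly below 0. Those of Gsto1 1416531_at against Control lie wholly above 0 for both toxins. No value passed after adjustment.

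Over the 9 genes tested, each by its brightest probe set, the median log2 fold change was -0.15 in METH against Control (6 below 0, 3 above), beside 0.01 over all probe sets tested. That median was -0.043 with array weights, -0.084 without METH 2 and -0.245 without Control 3. It was 0.01 in MPTP against Control (4 below 0, 5 above), beside 0.01, and -0.122 with the filter at the 60th percentile, -0.057 without Control 2 and -0.043 without MPTP 2. In METH against MPTP it was -0.05, and 0.028 without METH 2. Single genes ran from -0.36 to 0.28 in METH and from -0.30 to 0.33 in MPTP. The typical size, ignoring sign, was 0.24 for the genes in METH and 0.22 in MPTP, beside 0.11 and 0.10 over all probe sets, with a median SE of 0.12 for the genes and 0.13 for all. Values on both sides of 0 were thus found for each toxin.

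By the mean log2 deviation over the 9 genes, METH 2 was the lowest array at -0.179 and Control 1 the highest at 0.111. METH 1 and METH 3 had -0.069 and 0.02, the MPTP arrays had 0.049, 0.038 and 0.059, and Control 2 and 3 had -0.043 and 0.014. The METH and Control ranges overlapped.

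Other genes of the pathway were read from 4 lists. Of the other cytosolic transferases, 5 of 16 were tested and 0 passed in METH or MPTP, with medians of 0.10 and 0.14. Gstk1, the kappa-class transferase, had 0.10 ± 0.12 in METH and 0.14 ± 0.12 in MPTP. Among 5 genes tested of the microsomal transferase family, not all of them transferases, 0 passed, and the medians were 0.03 and 0.13. Mgst3, a microsomal transferase and peroxidase, had -0.20 ± 0.10 in METH and -0.19 ± 0.10 in MPTP. Alox5ap, the activating protein of 5-lipoxygenase, had 0.33 ± 0.17 in METH, with all METH arrays above all Control arrays, and 0.21 ± 0.17 in MPTP. Mgst1 had 0.19 ± 0.11 and 0.16 ± 0.11. The list of glutathione use, recycling, breakdown and transport had 18 genes tested, of which 0 passed, with medians of -0.07 in METH and -0.03 in MPTP. In METH 8 of these genes were above 0 and 10 below, and in MPTP 6 were above and 12 below.

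Within that list, 4 genes were lower at an unadjusted p under 0.05 in METH and 0 higher (3.00% and 5.76% of all probe sets), and in MPTP 1 was lower and 0 higher (1.82% and 3.71% of all). Glrx2, a mitochondrial glutaredoxin, read 3997, 3840 and 4243 in METH mice and 4225, 4003 and 4357 in MPTP mice, against 5050, 4883 and 4695 in Control mice. All toxin arrays lay below all Control arrays, at -0.28 ± 0.09 for METH (limma adjusted p = 0.504) and -0.22 ± 0.09 for MPTP (adjusted p = 0.874). Gpx4, the peroxidase of membrane lipid peroxides, had -0.32 ± 0.11 in METH and -0.17 ± 0.11 in MPTP. Glrx, the cytosolic glutaredoxin, had -0.38 ± 0.15 and -0.16 ± 0.15. The remaining gene of the 4, named after its values were seen, was Chac2, which breaks glutathione down, at -0.43 ± 0.17 in METH.

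NRF2 regulators and targets had 18 genes tested and 0 past the test for either toxin, with medians of 0.03 in METH and 0.02 in MPTP. In METH 12 of them were above 0 and 6 below, and in MPTP 14 were above and 4 below. Nfe2l2, which encodes NRF2, read 2421, 1918 and 2328 in METH mice and 2354, 2137 and 2520 in MPTP mice, against 2045, 1925 and 1949 in Control mice. MPTP arrays lay above all Control arrays, at 0.24 ± 0.11 (adjusted p = 0.874), while METH 2 lay below them, at 0.16 ± 0.11 for the group. Tkt, a transketolase, had -0.23 ± 0.11 in METH, and Bach1, a repressor of NRF2 targets, had 0.20 ± 0.13. Before adjustment, 0 genes of this list had a p under 0.05 in either direction, for METH or for MPTP.

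**Figure D4:**
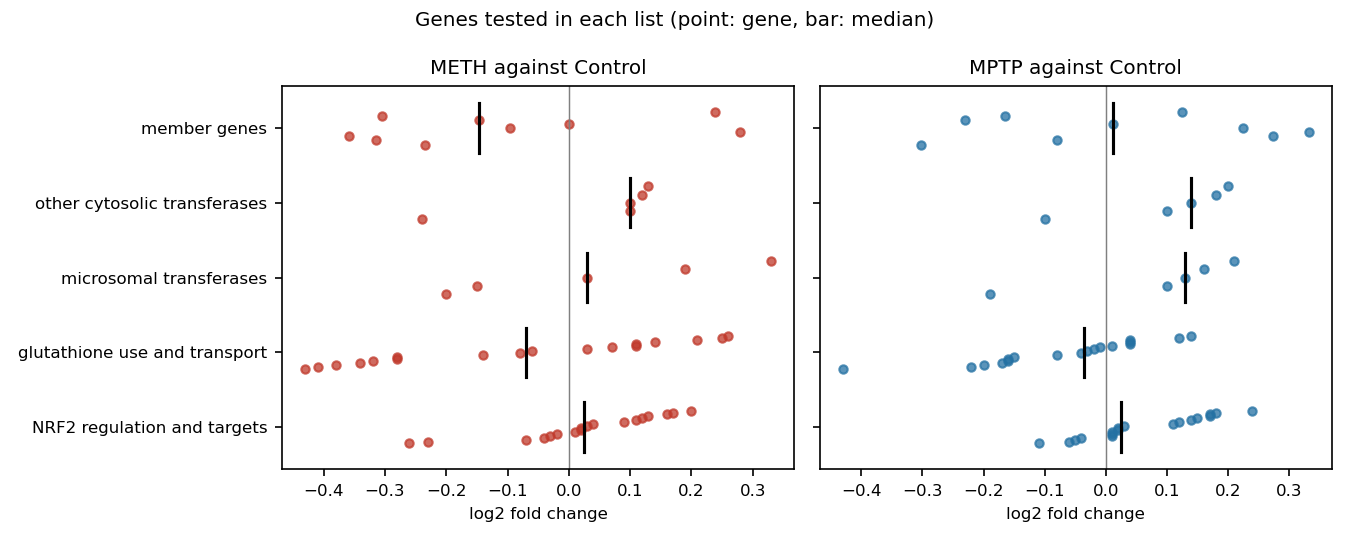
Log2 fold changes in METH against Control and MPTP against Control for the 9 member genes tested and the genes tested in 4 lists of the pathway; points are genes and bars medians. Member genes spread from -0.36 to 0.28 in METH, and the NRF2 list centres near 0 for both toxins.

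Spiny neuron markers, which define striatal tissue, were present on every array (6 of 10 tested, summed signal 170154 to 182506 in METH, 154215 to 180725 in MPTP and 173285 to 194100 in Control). Their median log2 fold change was -0.04 in METH (2 above 0, 4 below) and -0.13 in MPTP (0 above, 6 below), with 0 past the test. Choroid plexus markers come with ventricle lining, and 3 of 9 were tested. Their summed signal varied between arrays of every group, from 10514 to 53228 in METH, 5258 to 35933 in MPTP and 14220 to 67496 in Control. Most of this spread was of 1 gene, Ttr, which read 2853 to 65370 over the 9 arrays. Folr1 read 869 to 1470 and Foxj1 938 to 1806. The part of the choroid plexus markers in the values of the members was not tested. Endothelial markers had medians of -0.02 and -0.11 in METH and MPTP over 7 genes. The 1 blood gene tested, the haemoglobin gene Hbb-b2, had 0.69 ± 0.23 in METH and 0.57 ± 0.23 in MPTP. All arrays of both toxin groups lay above all Control arrays (limma adjusted p = 0.504 for METH and 0.874 for MPTP). The part of blood in the values of the members was not tested.

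The gene outside the set with the most similar pattern over the 9 arrays, by Pearson r of log2 signals among 7951 genes, was Prkag2 for Gstm1 (r = 0.978), Uchl1 for Gstm5 (0.961) and Apba2 for Gstt1 (0.901). For Gsto1 it was Ndst2 (0.948), for Gsta4 Pcdh8 (0.96), for Gstp1 Rab31 (0.958), for Gclc Apcdd1 (0.935), for Gclm Lrrc49 (0.954) and for Gss Tmem203 (0.952). These are descriptions of the same 9 arrays, picked as the highest of many.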

How the data were processed

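Striatal RNA of 9 mice was measured on single-colour Affymetrix arrays. The deposited values are linear intensity, 1 per probe set and array, as judged from the values. Per the submitters' processing notes the tool was RMA (version not given), but the deposited intensity values are not on its usual log scale, so how probe sets were summarised is not settled. Genes came from a platform annotation table, and all 10 genes were found in the RefSeq gene table of GRCm38.p6; promoter coordinates and the order of neighbouring genes are those of that build, and no other coordinates were used. Of 22690 probe sets, 64 array controls were left out, and of the rest 20380 had 1 symbol, 691 several and 1555 none listed.

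The deposited values were log2-transformed without a pseudocount or further scaling. Probe sets with a mean under the 40th percentile (a signal of 742) were left out. The rest were fitted in R 4.3.3 with limma 3.58.1 (a mean for each group over all 9 arrays, then eBayes, 6 residual and 3.94 prior degrees of freedom), two-sided, and Benjamini-Hochberg adjustment ran over all 13576 probe sets tested. Log2 fold changes carry their SE after ±, signals the SD. A list's gene is its probe set of highest mean. The fit was tested on simulated data. No detection calls were used, and the number of arrays limits precision.

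The members, lists and rules for naming genes were chosen with earlier results of these data known. All probe sets of the members are named, each pathway list gives the 3 of lowest p for METH, the other mu-class genes tested are added, and each member is followed by the most similar gene. Alternatives covered normalization, a pseudocount of 50, filters, the choice of probe set, the arrays fitted, array weights, a variance trend and a replicate block.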

Additional observations from a re-analysis of the deposited data

Results flagged for a closer look

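Gstt1 drew attention because every METH array lay below the Control mean and every MPTP array above it. Its METH minus MPTP difference was -0.63 on the log2 scale, and in the direct limma test of this difference it did not pass (adjusted p = 1, 3 arrays a group). Over the alternatives it ran from -0.78 without METH 1 to -0.49 without METH 3.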

How the results depend on the processing

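No member passed under any of the 22 alternatives in any comparison. Of 861 recomputed log2 fold changes of members, 834 kept their sign and 27 changed it. In METH against Control these were Gstm1 1425627_x_at (-0.023 with arrays centred on their medians, -0.053 with array weights, -0.175 to 0.21 leaving out 1 array), Gsta4 (0.042 with array weights, -0.441 to 0.252 leaving out 1 array) and Gstp1 (-0.063 with arrays centred, -0.033 to 0.062 leaving out 1 array). In MPTP against Control they were Gstm1 1425627_x_at (-0.05 with array weights, -0.096 to 0.288 leaving out 1 array), Gsta4 (-0.12 to 0.555 leaving out 1 array) and Gstp1 (-0.029 with arrays centred, -0.048 to 0.063 leaving out 1 array). In METH against MPTP they were Gstp1 (0.004 with quantile normalization, 0.018 with cyclic loess, 0.022 with array weights, -0.061 to 0.051 leaving out 1 array) and, leaving out 1 array, Gstm1 1425627_x_at (-0.157 to 0.03), Gsta4 (-0.564 to 0.028), Gclc 1455959_s_at (-0.003 to 0.107) and Gclm (-0.388 to 0.164).

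The member median in METH was -0.043 with array weights and -0.245 to -0.084 leaving out 1 array. In MPTP it was 0.068 with no filter, -0.122 at the stricter filter (60th percentile) and -0.057 to 0.063 leaving out 1 array. In METH against MPTP it was -0.139 without _x_at and _s_at probe sets and -0.078 to 0.028 leaving out 1 array. Counts chosen after the data were seen also moved. Members lower in METH at an unadjusted p under 0.05 numbered 3 with the 60th-percentile filter, with 1 probe set per gene, with the mean of all probe sets and with only the 2 groups in the fit, and 1 to 5 leaving out 1 array. Members higher numbered 0 with quantile normalization, cyclic loess, centred arrays, no filter, only the 2 groups and the replicate block, 2 with array weights, and 0 to 1 leaving out 1 array. Members entirely above Control in METH numbered 0 with centred arrays (4.01% of all probe sets tested) and 2 without METH 2 (11.8%). Those entirely below numbered 6 with quantile normalization (7.20% of all) and 5 with centred arrays (11.4%), beside 4 (6.73%). In each of these settings 4 of those below were mu class.

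The probe sets called over all those tested were 2 in each comparison with Control, both of Gfap. In METH the count was 0 with centred arrays, without _x_at and _s_at probe sets and with the replicate block, 1 with no filter, with 1 probe set or the mean per gene and with only the 2 groups, and 0 to 1 leaving out 1 array. In MPTP it was 0 with centred arrays, no filter, without _x_at and _s_at probe sets, with only the 2 groups and with the replicate block, 1 with 1 probe set or the mean per gene and with array weights, and 0 leaving out any 1 array. The cause was not tested. Same-numbered arrays of different groups did not deviate together (correlations of -0.133 to 0.054), so the replicate numbers were not taken as pairs; with the replicate block 0 members passed.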
